A study of Homo sapiens with 14 samples.

Results

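The 37 genes described here code for proteins of the centromere and the kinetochore. They were taken by symbol from tables that list 57756 genes in A549 cells. Each of the 37 symbols matched 1 gene identifier, and together they held 313 annotated isoforms. All 37 had a mean of at least 1 FPKM (a level scaled to isoform length and library depth, the unit of the deposited tables) and were among the 14233 genes tested. By role, 4 belong to the centromeric histone and its loading, 11 to the constitutive centromere-associated network, 10 to the KNL1, Mis12 and Ndc80 complexes, 3 to the SKA complex, 7 to the spindle checkpoint and 2 to the outer corona and its motors.

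A centromere is marked by nucleosomes that hold the histone variant CENPA in place of histone H3. The constitutive network binds these nucleosomes through the cell cycle, and in mitosis it carries the KNL1, Mis12 and Ndc80 complexes, which hold microtubules. The spindle checkpoint proteins gather on kinetochores without microtubules and delay anaphase. Transcription of many of these genes peaks in G2 and mitosis, so their RNA level in a bulk sample also follows the share of dividing cells.

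The study compared 7 groups of A549, a human lung carcinoma line, by RNA sequencing with 2 libraries a group. U2AF1 is the small subunit of the U2AF splicing factor and contacts the AG at the 3′ end of introns, and S34F is its substitution recurrent in lung cancer and myelodysplasia. The mutant groups were v1 S34F and v3 S34F. In them the S34F form of the U2AF1 isoform named v1 or v3 was overexpressed after U2AF1 knockdown. The wild-type groups, v1 wild type and v3 wild type, received the unmutated form after the same knockdown. The knockdown group received U2AF1 knockdown and an empty vector, the control group a control siRNA and an empty vector, and untreated cells neither. All libraries thus come from 1 line, and the overexpressed U2AF1 stands on a background of knockdown in all 4 of those groups. The labels give no time after treatment. They call the libraries replicates and name no separate cultures. The p-values below therefore measure only the spread between these libraries, which may be technical. Ranges of 2 libraries can lie apart by chance, and the share of all genes whose groups did not overlap was not counted.

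U2AF1 itself followed the labels. It had 2180 and 3852 FPKM in v1 S34F libraries, 2114 and 3239 FPKM in v3 S34F libraries, 2351 and 2877 FPKM in v1 wild-type libraries and 2366 and 3313 FPKM in v3 wild-type libraries. It had 16.2 and 28.9 FPKM in knockdown libraries, against 117 and 119 FPKM in control siRNA libraries and 128 and 143 FPKM in untreated libraries. The knockdown difference was -2.39 on the log2 scale (SE 0.31, adjusted p = 0.00808, limma), and it missed the threshold without knockdown replicate 1 (adjusted p = 0.0522) or control siRNA replicate 2 (adjusted p = 0.0557). All libraries with overexpressed U2AF1 were far above the untreated ones, and S34F and wild type differed by 0.03 on the log2 scale (adjusted p = 0.973).

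Relative depth, read from the ratio of coverage to FPKM, ran from 0.798 to 1.20 of the mean library, and read counts are unknown. In v1 S34F replicate 2 an isoform of 75 bases took 33.1% of all FPKM, in knockdown replicate 1 an isoform of 89 bases took 8.81%, and in the other libraries the top isoform took 0.494 to 1.06%. A549 genes such as KRT8, KRT18 and AKR1B10 were at 945 FPKM or more in every library. CDKN2A, which A549 has lost, was at 0.247 FPKM or less. Of the markers of other cell types, DCN was at 0, PTPRC at 0.519 FPKM or less and VWF at 0.012 FPKM or less, whereas COL1A1 had 6.60 to 9.37 FPKM and CD68 14.4 to 60.2 FPKM.

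The members differed widely in level. Their median FPKM over the 14 libraries ran from 2.82 for CENPP to 138 for BUB3. OIP5 varied most, with a highest library at 10.6 times the lowest. SPC25 followed at 4.10 times, SPC24 at 3.37 times, KNTC1 at 3.19 times and CENPK at 2.69 times, and BUB3 varied least at 1.33 times. The highest library was an untreated one for OIP5, SPC25, SPC24, KNTC1 and CENPK. The lowest was an S34F one for each of these 5. It was v1 S34F replicate 2, the library of lowest depth and with the 75-base isoform, for OIP5, SPC24 and CENPK. It was v1 S34F replicate 1 for KNTC1 and v3 S34F replicate 2 for SPC25.

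RefSeq promoters (GRCh38.p14, 300 bases each around the gene start) were matched for 29 of the 37 members. The letters TTTGAA, the core of the cell cycle homology element, were present on either strand in 13 of these 29 (44.8%), against 15.4% of 27305 promoters. CCAAT, the letters of the NF-Y box, were present in 17 of the 29 (58.6%), against 35.7% of all. CENPA, CENPF, CENPN, HJURP, MAD2L1, SPC25 and ZWINT held both. Of the members that passed the test with S34F, OIP5, CENPK and ZWILCH held CCAAT and BUB1B held TTTGAA. CENPH and BUB3 were not among the members found with either, and whether they were among the 29 matched is not given here. Whether the motifs go with the calls was not tested.

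In S34F against wild type, with the v1 and v3 constructs in 1 contrast, 6 of the 37 members passed the test, 2 higher and 4 lower. Over all genes tested, 1.85% passed, 0.583% higher and 1.27% lower. The members were chosen with earlier results of these data known, so these shares are no independent test of the members as a set. CENPH and BUB3 rose and OIP5, CENPK, BUB1B and ZWILCH fell (limma, Benjamini-Hochberg adjusted p under 0.05 over all genes). The remaining 31 gave log2 differences between -0.50 and 0.43. The median of the members was -0.08 and 25 of 37 were lower, against a median of 0.02 and 45.3% lower over all genes. In bulk RNA, fewer dividing cells and less RNA per cell cannot be told apart.

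OIP5 fell most. It codes for a subunit of the Mis18 complex, which prepares the centromere for new CENPA. OIP5 (ENSG00000104147; GRCh37 chromosome 15, 41601466 to 41624819) had 3.93 and 2.01 FPKM in v1 S34F libraries and 6.02 and 2.18 FPKM in v3 S34F libraries, against 12.5 and 11.1 FPKM in v1 wild-type libraries and 12.5 and 10.2 FPKM in v3 wild-type libraries. The groups did not overlap, and each S34F library was lower than the wild-type library of its construct and number. The means were 3.54 ± 1.87 FPKM for S34F and 11.6 ± 1.14 FPKM for wild type (SD, n = 4 libraries each), a log2 difference of -1.55 (SE 0.24, adjusted p = 0.0114). OIP5 had 10.3 and 8.36 FPKM in knockdown libraries, 16.5 and 13.2 FPKM in control siRNA libraries and 21.2 and 15.6 FPKM in untreated libraries, all above the highest S34F library. The antisense gene OIP5-AS1 covers 38.0% of the exon bases of OIP5, and the labels do not say that strand was kept. OIP5-AS1 had a log2 difference of -0.34 (adjusted p = 0.423), and its part in the OIP5 value was not tested.

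The other 3 genes of CENPA loading did not pass. HJURP, the chaperone that brings CENPA to the centromere, averaged 86.1 ± 9.52 FPKM in S34F libraries and 93.4 ± 15.1 FPKM in wild-type libraries. CENPA averaged 38.7 ± 1.47 FPKM with S34F and 35.4 ± 1.70 FPKM with wild type. MIS18A, the partner of OIP5 in the Mis18 complex, averaged 12.7 ± 1.20 FPKM with S34F and 13.4 ± 2.38 FPKM with wild type (SD, n = 4 libraries in each group). The S34F and wild-type ranges overlapped for all 3.

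Within the constitutive network the HIKM subcomplex split. CENPK and CENPH are 2 of its subunits. CENPK (ENSG00000123219; GRCh37 chromosome 5, 64813593 to 64858998) had 23.8 and 17.8 FPKM in v1 S34F libraries and 26.7 and 22.5 FPKM in v3 S34F libraries, against 44.6 and 46.5 FPKM in v1 wild-type libraries and 39.7 and 33.9 FPKM in v3 wild-type libraries. The ranges were apart. The means were 22.7 ± 3.72 FPKM with S34F and 41.2 ± 5.61 FPKM with wild type (SD, n = 4), a log2 difference of -0.84 (SE 0.11, adjusted p = 0.00473).

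CENPH moved the other way. CENPH (ENSG00000153044; GRCh37 chromosome 5, 68485375 to 68506184) had 54.1 and 59.8 FPKM in v1 S34F libraries and 57.3 and 60.9 FPKM in v3 S34F libraries, against 38.8 and 35.0 FPKM in v1 wild-type libraries and 43.5 and 39.99 FPKM in v3 wild-type libraries. There was no overlap between the groups, and the log2 difference was 0.55 (SE 0.09, adjusted p = 0.0152). CENPI and CENPM, the other subunits of HIKM, did not pass, at log2 differences of 0.05 (adjusted p = 0.921) and -0.20 (adjusted p = 0.621). None of the other 7 genes of the network passed, with log2 differences between -0.13 for CENPW and 0.23 for CENPL.

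In the spindle checkpoint 3 of 7 members passed. BUB1B codes for BubR1, a part of the complex that inhibits the anaphase-promoting complex. BUB1B (ENSG00000156970; GRCh37 chromosome 15, 40453224 to 40513337) had 26.1 and 23.7 FPKM in v1 S34F libraries and 26.4 and 26.8 FPKM in v3 S34F libraries, against 40.1 and 40.4 FPKM in v1 wild-type libraries and 37.9 and 36.8 FPKM in v3 wild-type libraries. All S34F libraries were below all wild-type libraries, with a log2 difference of -0.57 (SE 0.11, adjusted p = 0.0232).

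ZWILCH and KNTC1 are subunits of the RZZ complex, which recruits dynein to the kinetochore. ZWILCH (ENSG00000174442; GRCh37 chromosome 15, 66797297 to 66842115) had 34.7 and 27.7 FPKM in v1 S34F libraries and 32.7 and 30.5 FPKM in v3 S34F libraries, against 46.8 and 44.9 FPKM in v1 wild-type libraries and 42.0 and 39.6 FPKM in v3 wild-type libraries. Every library of one group lay beyond all of the other, and the log2 difference was -0.45 (SE 0.09, adjusted p = 0.039). KNTC1 gave -0.29 (SE 0.19, adjusted p = 0.513), with overlapping groups. RPL4, a ribosomal protein gene on the opposite strand with a mean of 1920 FPKM, shares 3.26% of the ZWILCH exon bases and gave a log2 difference of 0.06 (adjusted p = 0.781).

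BUB3 codes for the WD-repeat protein that brings BUB1 and BubR1 to kinetochores. BUB3 (ENSG00000154473; GRCh37 chromosome 10, 124913793 to 124924886) had 154 and 155 FPKM in v1 S34F libraries and 154 and 152 FPKM in v3 S34F libraries, against 124 and 130.3 FPKM in v1 wild-type libraries and 126 and 117 FPKM in v3 wild-type libraries. The groups did not overlap, and the log2 difference was 0.31 (SE 0.06, adjusted p = 0.0373). This rise depended on the weighting of isoforms: with each isoform's FPKM multiplied by its length before the sum, the difference was 0.03 (adjusted p = 0.87). The other 5 genes kept their calls under that weighting, and NUF2 was called as well at -0.47 (adjusted p = 0.0359).

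The other checkpoint genes, BUB1, MAD2L1 and TTK, did not pass. BUB1, the kinase that docks the checkpoint on KNL1, had 32.0 to 39.8 FPKM in S34F libraries and 43.2 to 48.7 FPKM in wild-type libraries, a log2 difference of -0.34 (SE 0.10, adjusted p = 0.129). TTK, the kinase that starts the checkpoint signal, had 22.0 to 25.9 FPKM in S34F libraries and 18.9 to 21.5 FPKM in wild-type libraries, a log2 difference of 0.26 (SE 0.09, adjusted p = 0.173). Neither pair of ranges overlapped.

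None of the 10 genes of the KNL1, Mis12 and Ndc80 complexes passed. SPC24, NUF2 and SPC25, which with NDC80 form the 4 subunits of the microtubule-binding Ndc80 complex, gave the lowest differences of this class. SPC24 had 10.53 and 7.90 FPKM in v1 S34F libraries and 8.91 and 11.3 FPKM in v3 S34F libraries, against 12.4 and 18.3 FPKM in v1 wild-type libraries and 12.5 and 13.3 FPKM in v3 wild-type libraries. All S34F values were below all wild-type values, yet the log2 difference of -0.50 did not pass (SE 0.14, adjusted p = 0.12). NUF2 gave -0.40 (SE 0.11, adjusted p = 0.0926) and SPC25 gave -0.48 (SE 0.19, adjusted p = 0.25). NDC80 itself gave 0.17 (SE 0.17, adjusted p = 0.687).

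No SKA or corona gene passed either. The SKA complex tracks microtubule ends, and its 3 genes gave log2 differences of 0.17 for SKA1, -0.11 for SKA2 and -0.12 for SKA3. CENPE, the kinesin that carries chromosomes to the spindle equator, had 13.5 and 16.3 FPKM in v1 S34F libraries and 11.4 and 15.6 FPKM in v3 S34F libraries, against 9.88 and 11.6 FPKM in v1 wild-type libraries and 9.61 and 9.81 FPKM in v3 wild-type libraries. The groups overlapped at their edges, and the log2 difference was 0.43 (SE 0.12, adjusted p = 0.096). This sum includes the isoform ENST00000514974 described below, whose share was higher with S34F and after knockdown. The level and the usage of CENPE are thus not separate results, and the isoform's part in the level was not tested. CENPF gave -0.08 (SE 0.08, adjusted p = 0.692).

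**Figure D1:**
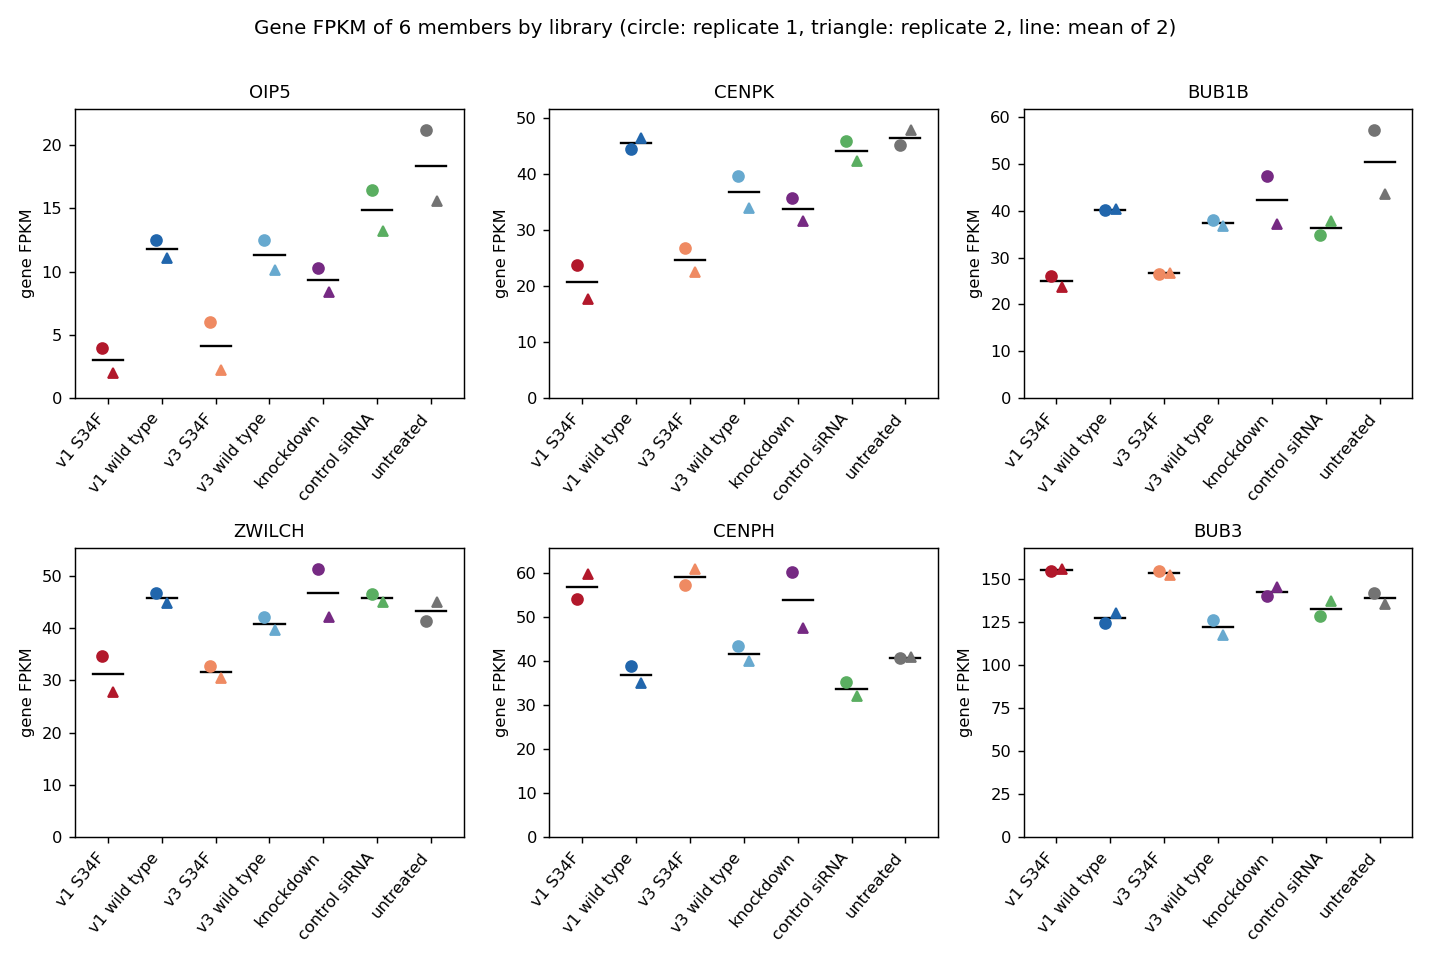
Gene FPKM (vertical axis) in each of the 14 libraries for the 6 members called in S34F against wild type; circles are replicate 1, triangles replicate 2 and lines the mean of 2. OIP5, CENPK, BUB1B and ZWILCH lie lower in both S34F groups than in the wild-type groups, and CENPH and BUB3 lie higher.

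Of the 6 calls, that of CENPK was kept when any of the 8 S34F and wild-type libraries was left out (adjusted p 0.00404 to 0.0315). That of OIP5 was kept without any S34F library and ended without any wild-type library, v1 or v3 (adjusted p 0.051 to 0.0607). CENPH was called only without replicate 1 of either S34F group, BUB1B and ZWILCH only without v1 S34F replicate 1, and BUB3 under none of the 8. The highest adjusted p over these was 0.0816 for CENPH, 0.1 for BUB1B, 0.148 for BUB3 and 0.161 for ZWILCH, and no log2 difference changed sign. Without v1 S34F replicate 2, the library with the 75-base isoform, CENPK gave -0.74 (adjusted p = 0.016) and OIP5 -1.37 (adjusted p = 0.0476), CENPH 0.52 (adjusted p = 0.068), BUB1B -0.54 (adjusted p = 0.1), BUB3 0.30 (adjusted p = 0.11) and ZWILCH -0.38 (adjusted p = 0.131). With the replicate number as a block, 10 of 37 members were called where 7.98% of all genes were, adding CENPE higher and NUF2, SPC24 and BUB1 lower (adjusted p 0.012 to 0.0437). At an unadjusted p under 0.05 were 14 members and 15.9% of all genes.

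The constructs were also compared 1 at a time. In v1 S34F against v1 wild type 1 member passed, CENPK at -1.11 (SE 0.15, adjusted p = 0.0213), where 0.176% of all genes did, 0.0281% higher and 0.148% lower. At an unadjusted p under 0.05 were 12 members and 9.93% of all genes. Without v1 wild-type replicate 1, v1 wild-type replicate 2 or v1 S34F replicate 2, CENPK no longer passed there, at adjusted p 0.188, 0.202 and 0.148. With the replicate block 5 members were called (CENPK, OIP5, BUB1B, ZWILCH and CENPH), where 2.17% of all genes were. OIP5 gave -1.73 (adjusted p = 0.0864), BUB1B -0.67 (adjusted p = 0.123), SPC24 -0.67 (adjusted p = 0.282) and CENPH 0.61 (adjusted p = 0.107). In v1, 26 of 37 members were lower with a median of -0.13, against 46.6% of all genes and a median of 0.02.

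In v3 S34F against v3 wild type no member passed with limma, where 0.0211% of all genes did, 0.00703% higher and 0.0141% lower. At an unadjusted p under 0.05 were 7 members and 6.44% of all genes. OIP5 gave -1.38 (adjusted p = 0.295), CENPK -0.56 (adjusted p = 0.347), SPC25 -0.54 (adjusted p = 0.835), CENPH 0.49 (adjusted p = 0.343) and BUB1B -0.47 (adjusted p = 0.485). OIP5 was called with the replicate block, where 0.485% of all genes were. In v3, 19 of 37 members were lower with a median of -0.02, against 45.5% of all genes and a median of 0.02.

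The S34F difference did not differ between v3 and v1 for any member at the threshold. The test of v3 minus v1 called 0 of 14233 genes, and 101 genes (0.71%), 1 member among them, had an unadjusted p under 0.05. That member was CENPK, whose log2 difference was less negative in v3 than in v1 by 0.54 (SE 0.22, unadjusted p = 0.0284, adjusted p = 1). OIP5 gave 0.35 (SE 0.49), SPC24 0.33 (SE 0.29), CENPN 0.27 (SE 0.24) and CENPM 0.25 (SE 0.33). Within v1 S34F against v1 wild type SPC24 was at -0.67, CENPN at -0.22 and CENPM at -0.33, and within v3 they were at -0.33, 0.05 and -0.07.

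**Figure D2:**
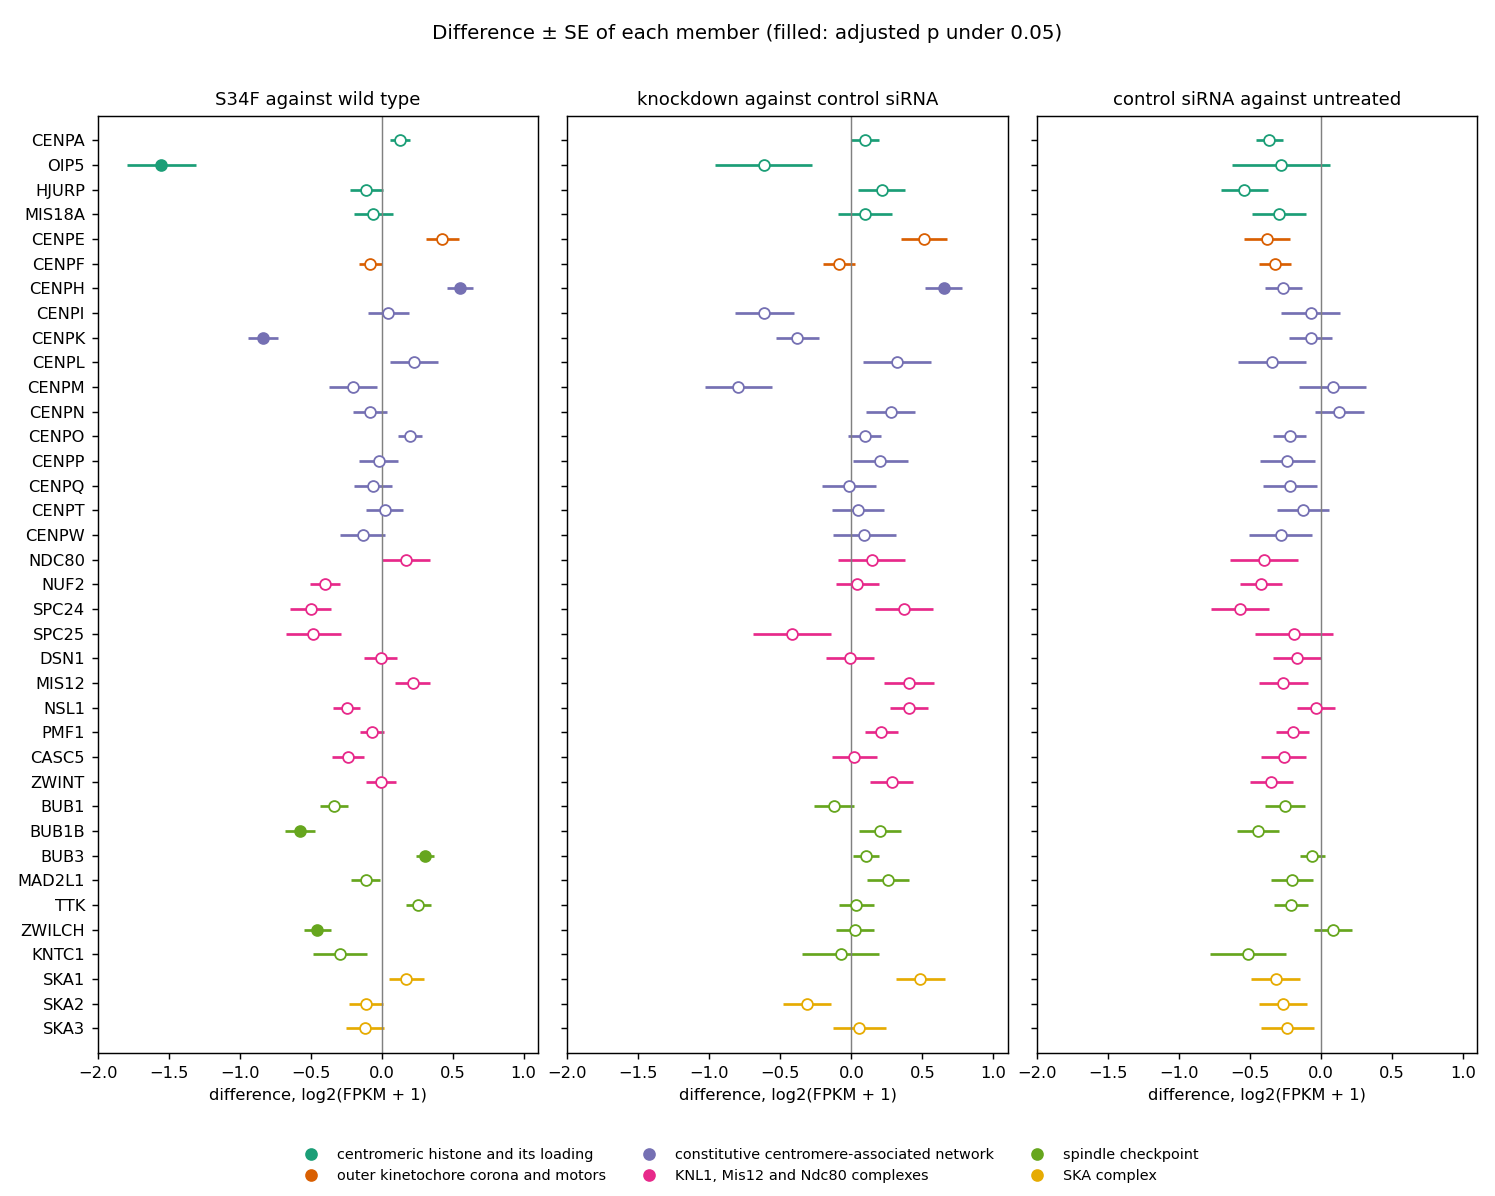
Log2 difference with its standard error (horizontal axis, log2(FPKM + 1)) of each of the 37 members, coloured by role, in S34F against wild type, knockdown against control siRNA and control siRNA against untreated; filled points have an adjusted p under 0.05. In the first panel 6 points are filled and in the second 1; in the third none is filled and 34 of 37 lie below 0.

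In knockdown against control siRNA, CENPH alone among the members passed, where 2.85% of all genes did, 0.787% higher and 2.06% lower. It had 60.3 and 47.5 FPKM in knockdown libraries, against 35.4 and 32.2 FPKM in control siRNA libraries. The ranges were apart, and the log2 difference was 0.65 (SE 0.13, adjusted p = 0.0295). The call ended without any 1 of these 4 libraries, at adjusted p 0.0544 without control siRNA replicate 1, 0.182 without knockdown replicate 1, 0.159 without control siRNA replicate 2 and 0.0809 without knockdown replicate 2. The median of the members was 0.09 and 11 of 37 were lower, against -0.01 and 51.5% lower over all genes.

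Other members of the HIKM subcomplex gave lower values after knockdown. CENPM had 14.4 and 15.2 FPKM in knockdown libraries, against 23.0 and 30.4 FPKM in control siRNA libraries, a log2 difference of -0.80 (SE 0.24, adjusted p = 0.1). CENPI had 11.4 and 8.59 FPKM in knockdown libraries, against 16.5 and 14.97 FPKM in control siRNA libraries, a log2 difference of -0.61 (SE 0.21, adjusted p = 0.139). The groups did not overlap for either. CENPK gave -0.38 (adjusted p = 0.209).

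OIP5 and CENPE complete the 5 largest differences. OIP5 gave -0.62 (SE 0.34, adjusted p = 0.369). CENPE had 16.4 and 16.0 FPKM in knockdown libraries, against 10.6 and 11.46 FPKM in control siRNA libraries, with no overlap and a log2 difference of 0.51 (SE 0.16, adjusted p = 0.122). With the replicate block 6 members were called, CENPE, CENPH, NSL1 and SKA1 higher and CENPI and CENPM lower (adjusted p 0.00804 to 0.0484), where 11.8% of all genes were.

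In wild type against knockdown, with both constructs in 1 contrast, no member passed with limma, where 1.43% of all genes did. By direction, 1.04% of all genes were called higher and 0.386% lower. At an unadjusted p under 0.05 were 9 members, all lower, and 15.8% of all genes. CENPE had 9.88 and 11.6 FPKM in v1 wild-type libraries and 9.61 and 9.81 FPKM in v3 wild-type libraries, against 16.4 and 16.0 FPKM in knockdown libraries. There was no overlap between the groups, and the log2 difference was -0.62 (SE 0.14, adjusted p = 0.0609). SPC24 had 12.4 to 18.3 FPKM in wild-type libraries, against 21.1 and 22.6 FPKM in knockdown libraries, a log2 difference of -0.61 (adjusted p = 0.129). SKA1 had 11.8 to 13.0 FPKM in wild-type libraries, against 20.7 and 16.4 FPKM in knockdown libraries, a log2 difference of -0.53 (adjusted p = 0.116). Neither pair of ranges overlapped. CENPN, which binds the CENPA nucleosome, had 66.4 to 71.3 FPKM in wild-type libraries, against 94.8 and 95.2 FPKM in knockdown libraries, a log2 difference of -0.45 (adjusted p = 0.176). CENPH gave -0.44 (adjusted p = 0.0876), also without overlap. The members' median was -0.10 and 28 of 37 were lower, against 0.02 and 46.3% lower over all genes.

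The comparisons with knockdown share the knockdown libraries, and those with wild type the wild-type libraries. With the replicate block 5 members were called in wild type against knockdown, CENPA, CENPE, CENPH, SPC24 and SKA1, all lower (adjusted p 0.0139 to 0.0461), where 7.52% of all genes were. With quantile normalization CENPE was called alone. With FPKM weighted by isoform length CENPE, CENPH and CENPN were called.

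In control siRNA against untreated no gene passed with limma (0.0141% did with the replicate block, no member among them), and 730 of 14233 genes (5.13%) had an unadjusted p under 0.05. Of the members 8 of 37 did, all lower. The log2 difference was below 0 for 34 of 37 members with a median of -0.27, against 53.8% of all genes and a median of -0.02. The lowest were SPC24 at -0.57, HJURP at -0.54, KNTC1 at -0.51, BUB1B at -0.45 and NUF2 at -0.42 (adjusted p 0.909 to 0.977).

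SPC24 had 14.8 and 18.8 FPKM in control siRNA libraries, against 26.6 and 23.9 FPKM in untreated libraries. HJURP had 93.4 and 94.6 FPKM in control siRNA libraries, against 129 and 146 FPKM in untreated libraries. NUF2 had 34.2 and 29.7 FPKM in control siRNA libraries, against 40.01 and 46.4 FPKM in untreated libraries. None of the 3 pairs of groups overlapped, which 2 libraries a group can give by chance, and none of the 3 genes passed. KNTC1 had 31.8 and 32.4 FPKM in control siRNA libraries, against 36.6 and 58.3 FPKM in untreated libraries, and BUB1B had 34.9 and 37.9 FPKM in control siRNA libraries, against 57.3 and 43.5 FPKM in untreated libraries. The untreated libraries of both were the higher ones and lay far apart from each other. Other dividing-cell lists lay the same way: 20 of 20 other G2/M genes had values below 0 (median -0.24), 11 of 11 genes of the chromosomal passenger complex and mitotic kinases (median -0.23), 23 of 24 G1/S and replication genes (median -0.14) and 16 of 22 other centromere and kinetochore genes (median -0.15).

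The same lists were read in the other comparisons. In S34F against wild type, 1 of 22 other centromere and kinetochore genes passed, NDE1, a dynein regulator, at 0.45 (adjusted p = 0.0427). None of the 11 genes of the chromosomal passenger complex and mitotic kinases passed. Among the 20 other G2/M genes 3 passed, all lower: TOP2A, the topoisomerase that untangles chromatids, at -0.84 (adjusted p = 0.00294), CCNA2, cyclin A2, at -0.74 (adjusted p = 0.00436) and DLGAP5, a spindle microtubule protein, at -0.42 (adjusted p = 0.0209). Among 24 G1/S genes 1 passed, RRM1, the large subunit of ribonucleotide reductase, at -0.67 (adjusted p = 0.0071). In knockdown against control siRNA 1 gene of these lists passed, UBE2C, a ubiquitin-conjugating enzyme that works with the anaphase-promoting complex, at 0.64 (adjusted p = 0.0429). Lower with S34F than with wild type were 5 of the 11 passenger complex and kinase genes (median 0.02). So were 9 of 22 other centromere and kinetochore genes (median 0.06). The other G2/M genes had 14 of 20 lower (median -0.14) and the G1/S genes 15 of 24 (median -0.08). In knockdown against control siRNA 2 of 11, 9 of 22, 11 of 20 and 16 of 24 were lower, in the same order of lists. The part of these differences in the members' values was not tested.

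Isoform usage is the percent of a gene's summed FPKM that 1 isoform holds. The test covered 41727 isoforms, 120 of them from 35 members. In S34F against wild type 5 isoforms of 3 members passed, 3 used more and 2 used less, where 0.681% of all isoforms did, 0.436% more and 0.244% less. They belong to HJURP, BUB3 and CENPE. With the replicate block 7 member isoforms were called, where 0.995% of all isoforms were.

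The CENPE isoform ENST00000514974 made up 22.8 and 20.3% of CENPE in v1 S34F libraries and 13.7 and 21.0% in v3 S34F libraries, against 3.24 and 9.13% in v1 wild-type libraries and essentially none in either v3 wild-type library. It made up 14.9 and 17.0% in knockdown libraries, against none and 1.97% in control siRNA libraries and 3.69 and 1.496% in untreated libraries. The S34F and wild-type groups did not overlap, nor did knockdown and control. The difference with S34F was 16.3 percentage points (SE 2.20, adjusted p = 0.0204), and after knockdown it was 14.98 points, which did not pass (SE 3.11, adjusted p = 0.123). In wild type against knockdown it was -12.9 points (SE 2.69, adjusted p = 0.108).

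This isoform is annotated as a coding fragment of 581 bases that joins exon 4 to exon 6, and the longer CENPE isoforms hold exon 5 between them. Exon 5 has 120 bases, all coding and a multiple of 3, on the minus strand of GRCh38 at chr4:103195114-103195233. It is shown with 15 bases of exon 4 and of exon 6, the exon in capitals, and then the junction without it, with the joined bases in capitals (GENCODE 29).
CENPE exon 5: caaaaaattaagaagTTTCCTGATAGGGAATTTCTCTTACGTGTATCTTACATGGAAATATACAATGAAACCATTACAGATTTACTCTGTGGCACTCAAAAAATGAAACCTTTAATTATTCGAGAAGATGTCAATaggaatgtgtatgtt
CENPE exon 4 to exon 6: caaaaaattaagaaGAggaatgtgtatgtt

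The 3′ splice site in front of this exon gave the same reading. Acceptor usage is the FPKM of the isoforms that use a site as a percent of that of the isoforms spanning it. Of 106 member sites tested 2 passed in S34F against wild type, both used less, where 1.33% of all 31989 sites did, 0.488% more and 0.838% less. The acceptor of CENPE exon 5 was used at 77.2 and 79.7% in v1 S34F libraries and 86.3 and 79.0% in v3 S34F libraries, against 96.8 and 90.6% in v1 wild-type libraries and 100% in both v3 wild-type libraries. The difference was -16.3 points (SE 2.30, adjusted p = 0.0197). It rests on the 581-base fragment, so it is no second line of evidence.

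The other site lies at the last exon of SPC25, a subunit of the Ndc80 complex (GRCh38 chromosome 2, position 168871555, minus strand). It was used at 49.2 and 43.2% in v1 S34F libraries and 62.4 and 69.2% in v3 S34F libraries, against 77.5 and 72.7% in v1 wild-type libraries and 91.0 and 80.0% in v3 wild-type libraries. Every library of one group lay beyond all of the other, and the difference was -24.3 points (SE 4.42, adjusted p = 0.0371). Of 2 isoforms that span it, 1 uses it. It was used at 70.0 and 65.2% in knockdown libraries, 64.9 and 53.1% in control siRNA libraries and 78.1 and 70.3% in untreated libraries. The joined exons read as follows, with the first bases of the last exon in capitals.
SPC25 exon 6 to exon 7: caagggactatgaagTGTCAGATAGTGCCC

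A site in SKA2 had the third smallest p. It opens exon 3 of SKA2, 177 coding bases on the minus strand of GRCh38 at chr17:59119319-59119495, which the isoform ENST00000581068 lacks. The acceptor was used at 36.7 and 50.8% in v1 S34F libraries and 47.1 and 46.0% in v3 S34F libraries, against 62.1 and 66.6% in v1 wild-type libraries and 63.6 and 72.8% in v3 wild-type libraries. The groups did not overlap, but the difference of -21.1 points did not pass (SE 4.33, adjusted p = 0.0517; 0.033 with the replicate block). The exon is shown in capitals between its neighbours.
SKA2 exon 3: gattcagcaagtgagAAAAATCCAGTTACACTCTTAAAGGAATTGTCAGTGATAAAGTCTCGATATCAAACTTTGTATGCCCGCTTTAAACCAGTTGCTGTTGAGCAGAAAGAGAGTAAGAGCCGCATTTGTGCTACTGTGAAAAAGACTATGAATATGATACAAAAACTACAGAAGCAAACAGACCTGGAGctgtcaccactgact

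CENPK also had a site near the threshold, named here after its values were seen. It opens an exon of 137 bases, not a multiple of 3, in 2 of the 12 isoforms that span it (GRCh38 chromosome 5, position 65551242, minus strand). Its usage was 13.1 and 11.8% in v1 S34F libraries and 14.01 and 25.3% in v3 S34F libraries, against 3.74 and 3.71% in v1 wild-type libraries and 4.77 and 2.85% in v3 wild-type libraries. The ranges were apart, but the difference of 12.3 points did not pass (SE 2.58, adjusted p = 0.055). It was 3.28 and 3.31% in knockdown libraries and 2.24 and 7.71% in control siRNA libraries. The junction is shown with the first bases of this exon in capitals.
CENPK exon 4 to exon 5: aaaaaacacctgaaaGGTCTCATCGTGTTG

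HJURP passed the test in 2 isoforms, and its summed level did not pass (log2 difference -0.11, adjusted p = 0.722). The isoform ENST00000432087 made up 26.8 and 29.2% of HJURP in v1 S34F libraries and 16.7 and 20.1% in v3 S34F libraries, against 6.64 and 5.50% in v1 wild-type libraries and 7.60 and 0.745% in v3 wild-type libraries. There was no overlap between the groups, and the difference was 18.1 points (SE 1.97, adjusted p = 0.0165). It stayed at 3.17% or less in every knockdown, control siRNA and untreated library, so the mutant libraries were the highest of all 14. The isoform ENST00000411486, with 2244 coding bases, made up 30.0 and 18.4% in v1 S34F libraries and 34.4 and 25.2% in v3 S34F libraries, against 53.6 and 49.0% in v1 wild-type libraries and 55.3 and 52.8% in v3 wild-type libraries. Every library of one group lay beyond all of the other, and the difference was -25.6 points (SE 4.64, adjusted p = 0.0481). With the replicate block this second difference had an adjusted p of 0.0532.

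In GENCODE 29 ENST00000411486 holds exons 4 and 5, of 97 and 65 bases, and ENST00000432087 lacks both. Together they have 162 coding bases, a multiple of 3, within chr2:233847397-233849859 of GRCh38 on the minus strand. The length of ENST00000432087 in the deposited tables is 2885 bases and in GENCODE 29 it is 3027, so its structure there may not be the one the authors used. The acceptor of exon 5, measured over the isoforms whose lengths matched, gave -18.6 points, which did not pass (adjusted p = 0.148). Both exons are shown in capitals.
HJURP exons 4 and 5: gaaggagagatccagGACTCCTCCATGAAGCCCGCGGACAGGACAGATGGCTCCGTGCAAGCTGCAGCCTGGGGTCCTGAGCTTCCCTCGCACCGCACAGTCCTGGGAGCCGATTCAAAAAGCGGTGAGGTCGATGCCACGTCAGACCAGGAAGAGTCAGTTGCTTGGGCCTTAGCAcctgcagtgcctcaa

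BUB3 exchanged its 2 main isoforms. ENST00000368858, listed at 1361 bases, made up 74.7 and 72.4% of BUB3 in v1 S34F libraries and 69.6 and 72.2% in v3 S34F libraries, against 49.8 and 49.1% in v1 wild-type libraries and 39.8 and 40.03% in v3 wild-type libraries. ENST00000368865, listed at 2731 bases, made up 15.7 and 12.4% in v1 S34F libraries and 17.5 and 17.2% in v3 S34F libraries, against 36.8 and 37.7% in v1 wild-type libraries and 41.9 and 44.9% in v3 wild-type libraries. The groups did not overlap for either isoform. The differences were 27.5 points (SE 3.42, adjusted p = 0.0177) and -24.6 points (SE 3.81, adjusted p = 0.0295). Since FPKM divides by length, a move to the shorter isoform raises the summed FPKM of BUB3 for the same number of fragments. ENST00000368865 is 7828 bases long in GENCODE 29, so its structure was not used here.

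**Figure D3:**
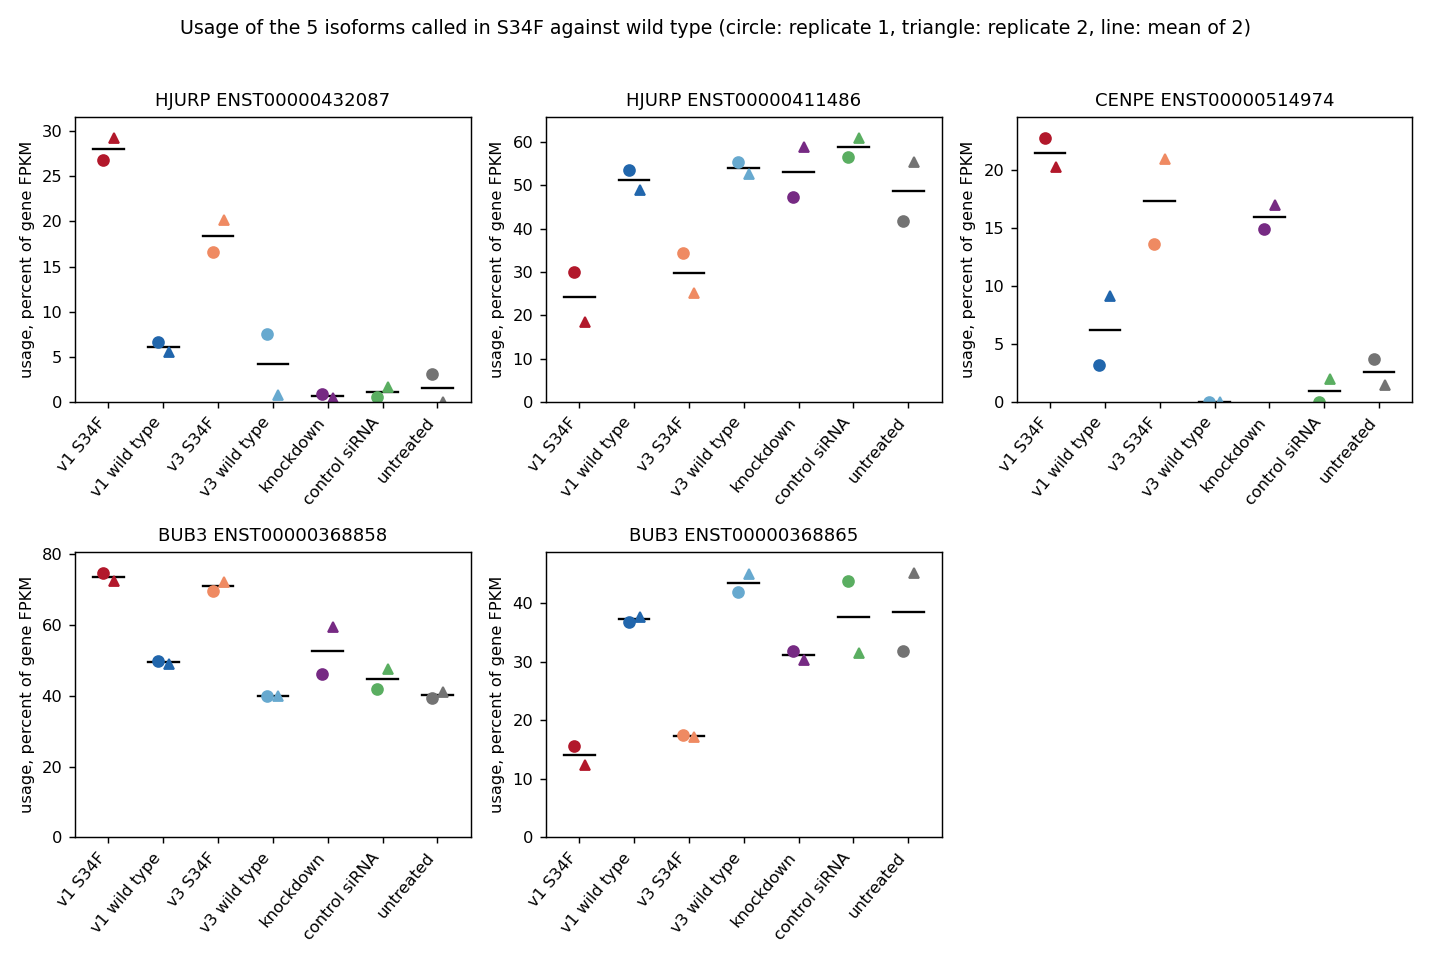
Usage in percent of gene FPKM (vertical axis) of the 5 isoforms called in S34F against wild type, in each of the 14 libraries; circles are replicate 1, triangles replicate 2 and lines the mean of 2. The S34F libraries stand apart from the wild-type libraries in each panel, and the CENPE isoform is also at 14.9 and 17.0% in knockdown libraries.

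These usage calls rested on few libraries too. That of HJURP ENST00000432087 was kept without 6 of the 8 libraries and ended without v1 wild-type replicate 2 (adjusted p = 0.0615) or v3 wild-type replicate 2 (adjusted p = 0.054). Those of CENPE ENST00000514974, its acceptor and BUB3 ENST00000368858 were kept only without replicate 1 of v1 S34F or of v3 S34F, and those of BUB3 ENST00000368865, HJURP ENST00000411486 and the SPC25 acceptor only without v1 S34F replicate 1. Over the 8 omissions the adjusted p reached 0.0902 for the CENPE isoform, 0.0807 for its acceptor, 0.0731 and 0.115 for the BUB3 isoforms, 0.169 for HJURP ENST00000411486 and 0.125 for SPC25. Without v1 S34F replicate 2 the adjusted p was 0.0402 for HJURP ENST00000432087, 0.0565 for CENPE, 0.0585 for its acceptor, 0.0553 and 0.108 for the BUB3 isoforms, 0.157 for HJURP ENST00000411486 and 0.124 for SPC25. The replicate block gave 4 called member sites, where 2.12% of all sites were called.

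In knockdown against control siRNA no member isoform passed with limma, where 0.129% of all isoforms did, 0.0935% more and 0.0359% less. At an unadjusted p under 0.05 were 12 of 120 member isoforms and 10.3% of all. The smallest p belonged to CENPA ENST00000233505. It made up 29.6 and 36.4% of CENPA in knockdown libraries, against 8.42 and 9.78% in control siRNA libraries. The groups did not overlap, but the difference of 23.9 points did not pass (SE 4.41, adjusted p = 0.0954). It made up 12.2 to 20.9% in S34F libraries, 16.3 to 24.7% in wild-type libraries and 12.01 and 15.8% in untreated libraries, so the knockdown libraries were the highest.

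That isoform lacks exon 3, which has 78 coding bases and keeps the frame, on the plus strand of GRCh38 at chr2:26792756-26792833. The deposited lengths of both CENPA isoforms match GENCODE 29. At 1299 and 1452 bases they also differ outside exon 3, so the usage does not measure skipping of that exon alone. The exon codes for a stretch of the histone fold and is shown in capitals.
CENPA exon 3: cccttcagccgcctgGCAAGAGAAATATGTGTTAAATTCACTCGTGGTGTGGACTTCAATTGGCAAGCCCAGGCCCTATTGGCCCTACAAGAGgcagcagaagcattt

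SKA3 gave a like picture. Its isoform ENST00000400018 made up 22.6 and 35.4% of SKA3 in knockdown libraries, against 3.62 and 7.65% in control siRNA libraries. The ranges were apart, and the difference of 23.3 points did not pass (SE 5.01, adjusted p = 0.133). In wild type against knockdown the same isoform gave -18.9 points (SE 4.33, adjusted p = 0.136). It lacks exon 8 of SKA3, 119 bases at chr13:21155693-21155811 on the minus strand of GRCh38, which hold the end of the coding sequence in the isoform ENST00000314759. At 2745 and 2919 bases, ENST00000400018 and ENST00000314759 also differ outside exon 8. The exon is shown in capitals.
SKA3 exon 8: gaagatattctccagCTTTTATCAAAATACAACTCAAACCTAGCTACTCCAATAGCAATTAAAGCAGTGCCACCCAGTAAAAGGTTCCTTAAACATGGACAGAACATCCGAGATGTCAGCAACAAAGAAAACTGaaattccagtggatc

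In wild type against knockdown no member isoform passed with limma, where 0.273% of all isoforms did, 0.0647% more and 0.208% less. At an unadjusted p under 0.05 were 19 of 120 member isoforms and 10.8% of all. The smallest p values belonged to MIS12 and ZWINT. MIS12 anchors the complex of its name to the constitutive network, and ZWINT binds KNL1. MIS12 ENST00000381165 made up 68.9 and 80.6% in v1 wild-type libraries and 58.1 and 53.1% in v3 wild-type libraries, against 44.2 and 38.6% in knockdown libraries. There was no overlap between the groups, but the difference of 23.8 points did not pass (SE 4.13, adjusted p = 0.0574). MIS12 ENST00000573759 gave -22.2 points (SE 4.49, adjusted p = 0.0957).

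Both MIS12 isoforms carry the same 615 coding bases in GENCODE 29 and differ outside them. ZWINT ENST00000395405 made up 7.01 and 5.51% in v1 wild-type libraries and 10.7 and 9.51% in v3 wild-type libraries, against 20.5 and 22.6% in knockdown libraries. Every library of one group lay beyond all of the other, and the difference of -13.4 points did not pass (SE 2.32, adjusted p = 0.0574). It shares its 831 coding bases with ENST00000373944 and differs outside the coding sequence.

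**Figure D4:**
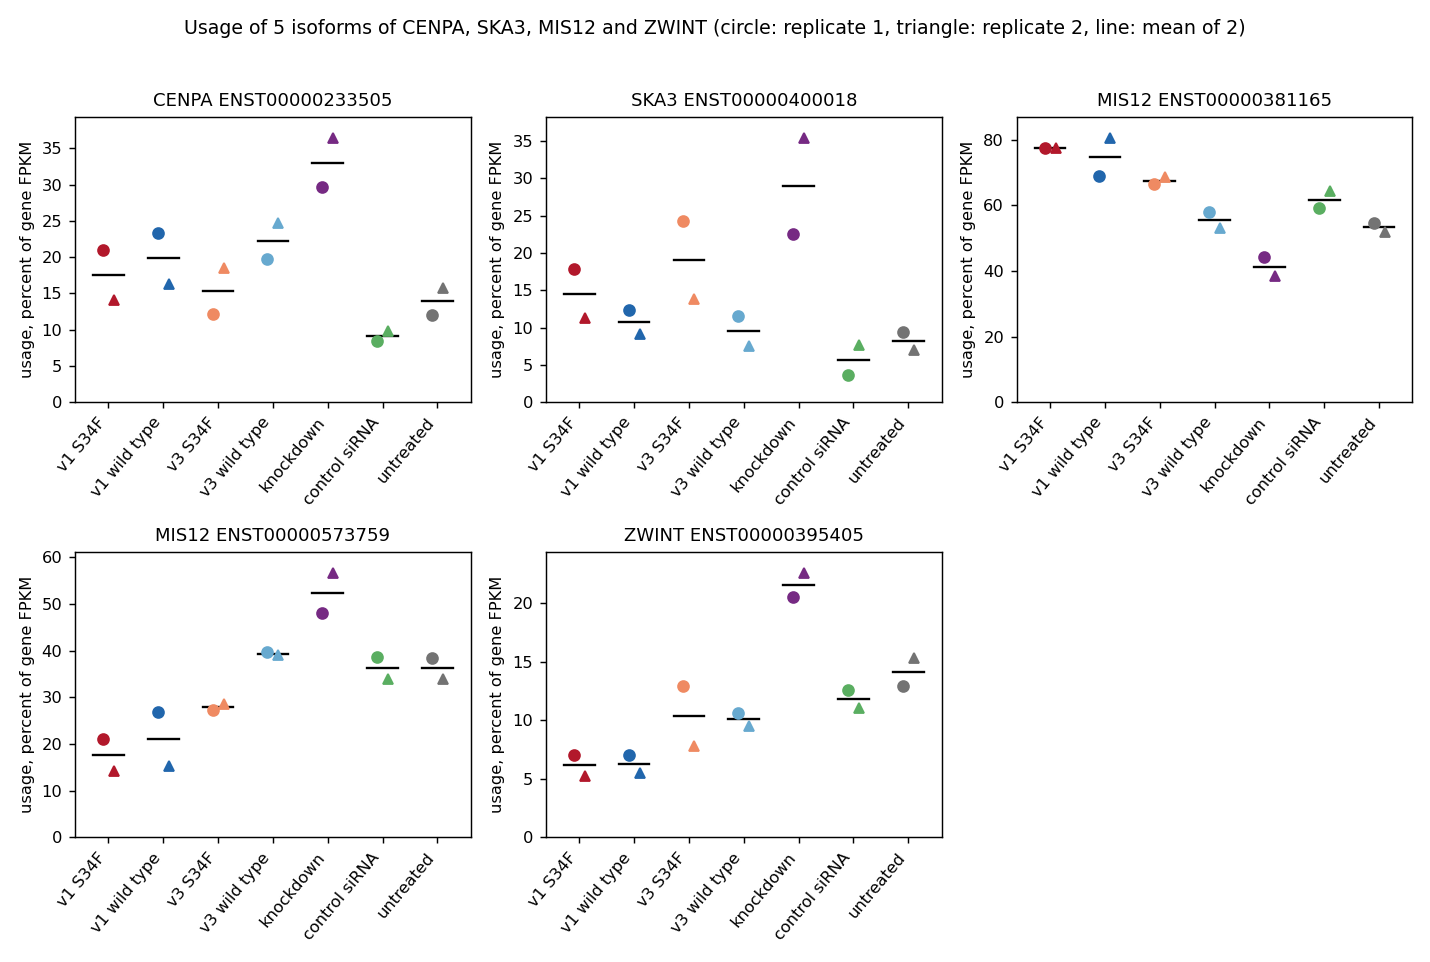
Usage in percent of gene FPKM (vertical axis) of isoforms of CENPA, SKA3, MIS12 and ZWINT in each of the 14 libraries; circles are replicate 1, triangles replicate 2 and lines the mean of 2. The knockdown libraries are the highest for CENPA ENST00000233505, MIS12 ENST00000573759, ZWINT ENST00000395405 and, by its mean, SKA3 ENST00000400018, and no difference shown passed the test.

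The median absolute difference in S34F against wild type was 3.61 points over 120 member isoforms and 3.30 points over all 41727. In knockdown against control siRNA it was 4.17 points for the members and 4.57 points for all. In wild type against knockdown it was 4.34 points for the members and 4.13 points for all.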

How the data were processed

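RNA of 14 A549 libraries was sequenced. Per the submitters' processing notes, Trimmomatic 0.30 and TopHat2 2.0.12 were used with GRCh37, and the program that estimated the values is not given in the sources used here. The authors deposited FPKM per isoform with confidence bounds, and coverage per isoform, per the file headers. A gene's FPKM is the sum over its identifier. The values are not counts, so log2(FPKM + 1) was fitted with limma 3.58.1 (R 4.3.3) with an intensity trend and a mean for each of 7 groups. It was fitted for the 14233 genes with a mean of at least 1 FPKM and no failed estimate. That mean was reached by 14244 genes, and 14 genes of the whole series had a failed estimate. The fit had 7 residual degrees of freedom, and p-values were adjusted by Benjamini-Hochberg within a comparison, with a threshold of 0.05. A fold change on this scale understates that of low genes. Usage was fitted likewise for isoforms with a mean usage of 5 to 95%, on the percent scale. Acceptor usage needed exon structures: 102715 of 116194 isoforms of tested genes matched GENCODE 29 (GRCh38) by identifier and length, and 292 of 313 member isoforms. Sequences come from its transcripts. The bases of introns were not used here. Exon overlaps with other tested genes, on either strand, concern 12 members.

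The members and lists were chosen with earlier results of these data known. Named genes are members with an adjusted p under 0.05 in any comparison and the 5 with the largest absolute log2 difference in each; named isoforms and sites are those called and the 3 with the smallest p. Deviations of libraries with the same replicate number from their group means correlated in all 21 pairs of groups (0.16 to 0.571). The labels do not say what a number marks, so the main fit did not pair the libraries. A replicate block, which does, was fitted only as an alternative. Alternatives were another pseudocount, no filter, upper quartile and quantile scaling, a replicate block, leaving out each library in turn, an arcsine scale, a higher filter and, chosen after seeing the data, FPKM weighted by isoform length and no intensity trend. Fits were tested on simulated data. They missed some of the gene differences put into those data and most of the smaller usage and acceptor differences. A difference that did not pass may thus still be present. The simulated libraries varied independently, without the correlation by replicate number given above. Python 3.11.15, pandas 2.3.3 and matplotlib 3.10.9 were used.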

Additional observations from a re-analysis of the deposited data

How the results depend on the processing

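With groups of 2 libraries, most calls sat near the threshold and changed with the settings below; no call reversed its direction. Members called by gene FPKM numbered 10 in S34F against wild type, 5 in v1, 1 in v3, 6 in knockdown against control siRNA and 5 in wild type against knockdown with the replicate block; member acceptors called numbered 4. Leaving out 1 library of the groups compared gave 1 to 5 members in S34F against wild type, 0 to 1 in v1 and 0 to 0 in knockdown against control siRNA, 0 to 6 isoforms and 0 to 2 acceptors in S34F against wild type. Leaving out 1 v3 S34F library, which enters the v1 comparison only through the shared spread, gave 2 members in v1, CENPK and OIP5. FPKM weighted by isoform length gave 2 members in v1 and 3 in wild type against knockdown, and quantile normalization gave 1 in wild type against knockdown. Usage in S34F against wild type gave 3 isoforms on the arcsine scale and 8 with genes of at least 5 FPKM, and in wild type against knockdown 2 with that filter and 1 without the intensity trend. Acceptors numbered 5 with at least 5 FPKM over the spanning isoforms and 4 without the trend. Over all genes, leaving out 1 library of the groups compared gave 47 to 332 genes in S34F against wild type (264 with all libraries) and 15 to 274 in knockdown against control siRNA (405 with all), and FPKM weighted by isoform length gave 501 and 981. The interaction of v3 minus v1, never called, changed sign for OIP5 (-0.22 to 0.92 over the omissions; -0.0059 without v1 S34F replicate 2) and CENPM (-0.024 to 0.53). The block changed no other call among the members named, apart from those given beside the results. Of the values of single genes, isoforms and sites under the alternatives, 472 kept direction and side of the threshold, 23 gained the call, 87 lost it and 3 reversed. Without the filter on low values ZWILCH was not called. The causes were not tested.

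Depth in reads is unknown, the number of libraries limits the precision, and no value here separates fewer dividing cells from less RNA per cell.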
